A study of Capra hircus with 14 samples.

Results

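The genes of oxidative phosphorylation were followed in goat (Capra hircus) cells over 8 days of a fibroblast-to-mammary-epithelial conversion protocol. Members were the rows of the deposited gene table that carry the oxidative phosphorylation pathway label of KEGG (map00190), without those named ATP6V or ATP6AP, which are parts of the lysosomal proton pump. The rule found 251 members among 30277 rows. Of these, 100 were nuclear protein-coding genes, of which 89 encode parts of complexes I to V. A further 13 were the annotated genes of the mitochondrial genome, and 19 were transcripts assembled from the reads and annotated with a mitochondrially encoded product. The remaining rows were 98 pseudogenes, 14 transfer RNA rows annotated as NDUFS7, 3 rows of the lysosomal proton pump under other names, 2 zinc finger rows annotated as a complex V subunit, 1 assembled row annotated as COX6C and 1 other row annotated with COX1. Enough counts for a test were present for 129 members, among them 92 of the 100 nuclear genes.

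Oxidative phosphorylation makes most of the ATP of a resting mammalian cell. Complexes I and II take electrons from NADH and succinate and pass them through ubiquinone to complex III, cytochrome c and complex IV, where oxygen is reduced, while complexes I, III and IV pump protons out of the mitochondrial matrix. Complex V, the ATP synthase, lets the protons flow back and makes ATP. Most subunits are encoded in the nucleus, and a small hydrophobic core of complexes I, III, IV and V is encoded in mitochondrial DNA, so the complexes need the products of both genomes. Fibroblasts in culture are known to draw much of their ATP from glycolysis.

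R induction medium, renewed every 2 days, had been on the cells of the later groups for 1, 2, 3, 4, 6 and 8 days. The day 0 group was the starting culture, named GEF in the labels, which give the genotype as WT and the cell type as fibroblast, grown in DMEM and serum. Each of the 7 days had 2 libraries made from total RNA after removal of ribosomal RNA, with 20515126 to 24746010 estimated counts each. The labels do not say whether the 2 libraries of a day came from separate cultures, so the p-values reflect only how far these libraries spread, and that spread may be technical. From day 0 to day 1 both medium and culture time changed. Cells left without induction medium on later days are not analysed here, so these cannot be told apart. In the steps of 1 day, the day of induction and the time since the medium was renewed cannot be told apart either. By the schedule of 2 days, days 2, 4, 6 and 8 fall at the same point of renewal. In bulk RNA, fewer cells of a type and less RNA per cell cannot be told apart.

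The defining markers of fibroblasts were present at day 0 and lower at day 8. The summed level of 10 fibroblast markers was 18173 to 18504 CPM, a gene's count scaled by the total and the composition of its library, at day 8 and 33790 to 34287 CPM at day 0, with 9 of the 10 lower and THY1 higher at day 8. The 10 basal epithelial markers summed to 47835 to 48630 CPM at day 8 and 12046 to 12994 CPM at day 0, with 8 higher and 1 lower. The keratins KRT5 and KRT14 of this list were already at 3810 ± 274 and 4388 ± 338 CPM at day 0 (SD, n = 2), in cells labelled as fibroblasts. The 10 luminal markers summed to 1615 to 1631 CPM at day 8 and 2607 to 2786 CPM at day 0, with 6 higher and 4 lower. Of the leukocyte markers, the 3 tested were all lower at day 8, and their list summed to 9.43 to 10.0 CPM against 140 to 142 CPM at day 0. PTPRC, the general leukocyte marker, and TYROBP had 0 counts in all libraries. The endothelial list summed to 4.04 to 4.48 CPM at day 8 and 22.1 to 23.9 CPM at day 0. The course between these days was not one-way. At day 1 the fibroblast list summed to 44158 to 44194 CPM, with 6 higher and 3 lower than at day 0. The basal list then summed to 5411 to 5434 CPM, with 1 higher and 8 lower, and the luminal list to 810 to 820 CPM, with 0 higher and 9 lower. All 10 fibroblast markers were lower at day 3 than at day 2, and 8 were higher and 1 lower at day 4 than at day 3. The part of these markers' cell types in the changes of the members was not tested.

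Transcripts of most nuclear members fell within 1 day in the induction medium, and on day 8 more of them were above than below the starting level. Of the 92 nuclear members tested, 75 were lower and 5 higher at day 1 than at day 0, with a median log2 fold change of -0.53, in edgeR's quasi-likelihood test at an adjusted p under 0.05. Among all 15712 genes tested, 69.4% were called in the same comparison, 34.5% lower and 34.8% higher, and the median was 0.01. At day 8, 84 nuclear members were higher than at day 1 and 0 lower, with a median of 0.64, while of all genes 66.8% were called, 31.8% as higher and 35.0% as lower, and their median was -0.04. Without the adjustment, 0 of the 92 was lower at day 8 than at day 1 with p under 0.05 in edgeR, and DESeq2 called 0 lower. Against day 0, 49 nuclear members were higher and 10 lower at day 8 (median 0.18), and here 70.9% of all genes were called, 36.0% as higher and 35.0% as lower, and their median was 0.02. Over the 129 tested members, which passed the filter on low counts and are counted as a description, there were 10 higher and 95 lower at day 1 against day 0, 109 higher and 3 lower at day 8 against day 1, and 61 higher and 22 lower at day 8 against day 0. In a test for a difference between any of the days, 122 of the 129 tested members and 92.4% of all genes were called.

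The median change of the nuclear members was less than 2-fold. Summed over the 89 nuclear genes of complexes I to V, the level was 8302 ± 379, 5960 ± 57.2, 7165 ± 107, 6717 ± 12.2, 7963 ± 124, 6713 ± 374 and 9572 ± 140 CPM at days 0, 1, 2, 3, 4, 6 and 8 (mean ± SD, n = 2 libraries each). The 2 libraries of day 1 lay below those of every other day, and those of day 8 above those of every other day. Over the 92 tested nuclear members, the median change was -30.9% for day 1 over day 0. It was 56.4% for day 8 over day 1 and 13.3% for day 8 over day 0.

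**Figure D1:**
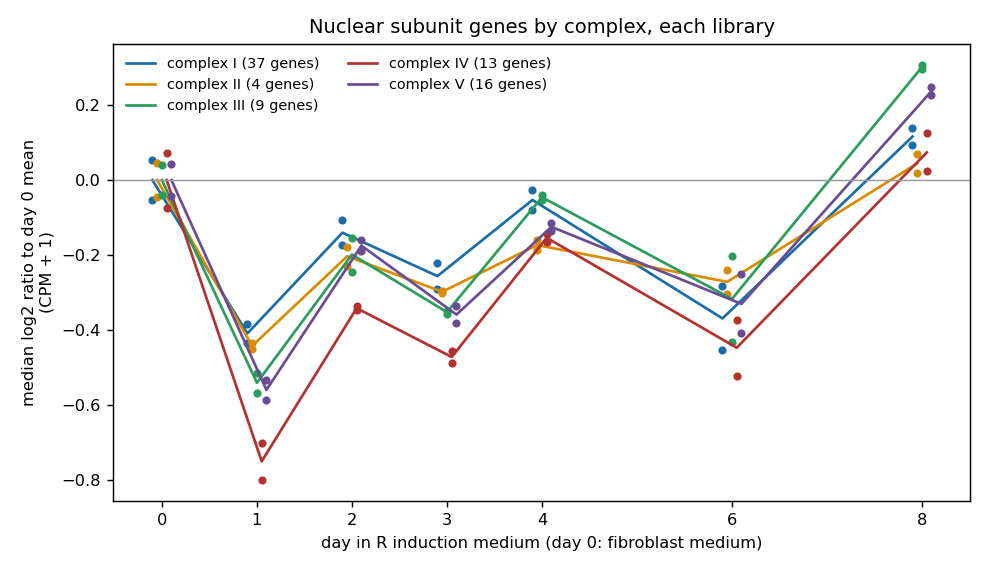
Median log2 ratio of the nuclear members of each complex to their day 0 mean (CPM plus 1, genes averaging at least 5 CPM), by day. Points are single libraries, lines join the means of the 2 libraries of a day. All 5 complexes are below 0 at days 1, 2, 3, 4 and 6, complex IV is the lowest at day 1, and all 5 are above 0 at day 8.

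Between the sampled days the nuclear members went down and up in turn. At day 2, 62 of 92 were higher and 1 lower than at day 1 (median log2 fold change 0.28), against 48.4% of all genes called, 25.3% higher and 23.1% lower. At day 3, 33 were lower and 5 higher than at day 2 (median -0.13), against 45.3% of all genes called, 24.1% lower and 21.2% higher. At day 4, 51 were higher and 3 lower than at day 3 (median 0.23), against 50.4% of all genes called, 28.8% higher and 21.6% lower. At day 6, 66 were lower and 3 higher than at day 4 (median -0.26), against 54.2% of all genes called, 31.2% lower and 23.0% higher. Over all tested members 71 were lower in this step, 47 with DESeq2 and 45 in a fit of only these days. At day 8, 84 were higher and 1 lower than at day 6 (median 0.52), against 48.8% of all genes called, 25.6% higher and 23.2% lower. The day means of 63 nuclear members (68.5%) followed this order of falls and rises in every step, as did those of 12.1% of all genes tested. The mean was lowest at day 1 for 55 of the 92 (15.3% of all genes) and highest at day 8 for 58 (18.0% of all genes).

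The members with the largest steps were mostly weakly expressed, and included pseudogenes and a zinc finger row annotated with a complex V subunit. At day 2 the largest rises over day 1 were those of COX7A1, a muscle form of a complex IV subunit, at 1.42, and LOC108638252, a complex V subunit row, at 0.77. The largest falls were in rows averaging under 0.5 CPM, the zinc finger row LOC106501989 and the pseudogene LOC102183240, at -2.64 and -1.75. At day 3, ATP12A and LOC108638252 fell by 1.69 and 0.65 on the log2 scale, while LOC106501989 and MSTRG.107, both under 1 CPM on average, were at 1.64 and 1.59. At day 4, COX7A1 and MT-ND6, a mitochondrially encoded subunit of complex I, rose by 0.87 and 0.63, and LOC106501989 and PPA2 were at -1.52 and -0.31. At day 6, NDUFA4L2 and LOC102173195, a pseudogene inside the span of TPM1, were at 1.44 and 1.27 over day 4. LOC108635087 and COX7A1 were at -0.87 and -0.75. At day 8, ATP12A and LOC102182933, a pyrophosphatase pseudogene under 1 CPM, rose by 2.89 and 1.61 over day 6, and COX4I2 and LOC102173195 were at -1.67 and -1.51.

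Several of these steps lost their call under other settings. LOC106501989 was not called with DESeq2 or without a filter at day 3 over day 2 or at day 4 over day 3. At day 3 over day 2 it was at 1.03 without the first library of day 2 (edgeR adjusted p = 0.31), and at 1.73 and 1.53 without the first or second library of day 3 (edgeR adjusted p = 0.0819 and 0.15). Without the first or second library of day 1 it was at 1.63 in both fits (edgeR adjusted p = 0.0523 and 0.0508). At day 4 over day 3, of the fits that left out 1 library, only those without a library of day 2 kept its call. In that step it was at -1.09 without the second library of day 4 (edgeR adjusted p = 0.281) and at -1.52 with a replicate block (edgeR adjusted p = 0.0561). MSTRG.107 was at 1.34 without the first library of day 2 and 1.24 without the first of day 3 (edgeR adjusted p = 0.124 and 0.137). NDUFA4L2 at day 6 over day 4 was at 1.52 with DESeq2 (DESeq2 adjusted p = 0.057). It was at 1.17, 1.79 and 1.03 without the first or second library of day 4 or the first of day 6 (edgeR adjusted p = 0.151, 0.0521 and 0.229). LOC102183240 at day 2 over day 1 was not called with DESeq2, without a filter, or without the first library of day 1 or the second of day 2 (-1.48 and -1.15). LOC108638252 was not called at day 2 without the first library of day 2 (0.65), nor at day 3 without that library (-0.52) or the second of day 3 (-0.37). LOC102182933 was not called at day 8 without the first library of day 6 (1.43) or the second of day 8 (1.52).

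Members moved together between the 2 libraries of a day as well, so they are not independent observations. Of 86 nuclear members averaging at least 5 CPM, 76 were higher in the second than in the first library of day 6, with a median log2 ratio of the first to the second of -0.14. At day 0, 75 of the 86 were higher in the first library, with a median log2 ratio of 0.10. Over all members, 79 were called between days 6 and 4, and 47 without the first library of day 6. Between days 3 and 2 the count was 53, and it was 33 without the first library of day 2, 35 without the second library of day 2 and 34 without the first library of day 3. The number of nuclear members that followed the alternating order was 60 to 65 when any 1 of the 14 libraries was left out. The number lowest at day 1 was 40 without the second library of day 6 and at least 54 without any other.

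Short genes as a class had median changes in the same order of falls and rises. The nuclear members were short, with a median length of 786.5 bases in the authors' table against 2688 bases for all genes tested. Over all 1589 tested genes under 1000 bases, the median log2 fold changes of the 6 steps from day 0 to day 8 were -0.33, 0.18, -0.14, 0.15, -0.26 and 0.22, and 25.3% of these genes followed the alternating order. The 56 nuclear members under 1000 bases had -0.55, 0.34, -0.14, 0.28, -0.33 and 0.54, and 44 of them alternated. The 36 longer nuclear members had -0.43, 0.21, -0.10, 0.17, -0.15 and 0.45, and 19 alternated, against 10.6% of all 14123 longer genes. Between days 8 and 1 the median was 0.70 for the short and 0.55 for the long members, against 0.14 for all short and -0.06 for all long genes. The part of length in the pattern was not tested beyond these values.

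Complexes differed in level and in the size of their changes, as a description without a test between them. Levels per kilobase of transcript were taken over nuclear subunits averaging at least 5 CPM. These were 37, 4, 9, 13 and 16 of the 37, 4, 10, 21 and 17 genes of complexes I to V. Their median at day 0 was 61.6 CPM per kilobase for complex I, 79.7 for II, 101.7 for III, 176 for IV and 162 for V. The highest level per length at day 0 was that of ATP5G2, a gene for the membrane ring of the ATP synthase, at 388 CPM per kilobase. Fold changes were taken over all tested nuclear subunits. The median log2 fold change of day 1 over day 0 was -0.43 for complex I, -0.45 for II, -0.56 for III, -0.74 for IV and -0.57 for V. For day 8 over day 1 the medians were 0.50, 0.50, 0.83, 0.77 and 0.76 in the same order. For day 8 over day 0 they were 0.15, 0.05, 0.29, 0.06 and 0.23. The summed level of a complex at day 8 was 1.07 times that of day 0 for complex I, 0.983 times for II, 1.30 times for III, 1.09 times for IV and 1.24 times for V.

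**Figure D2:**
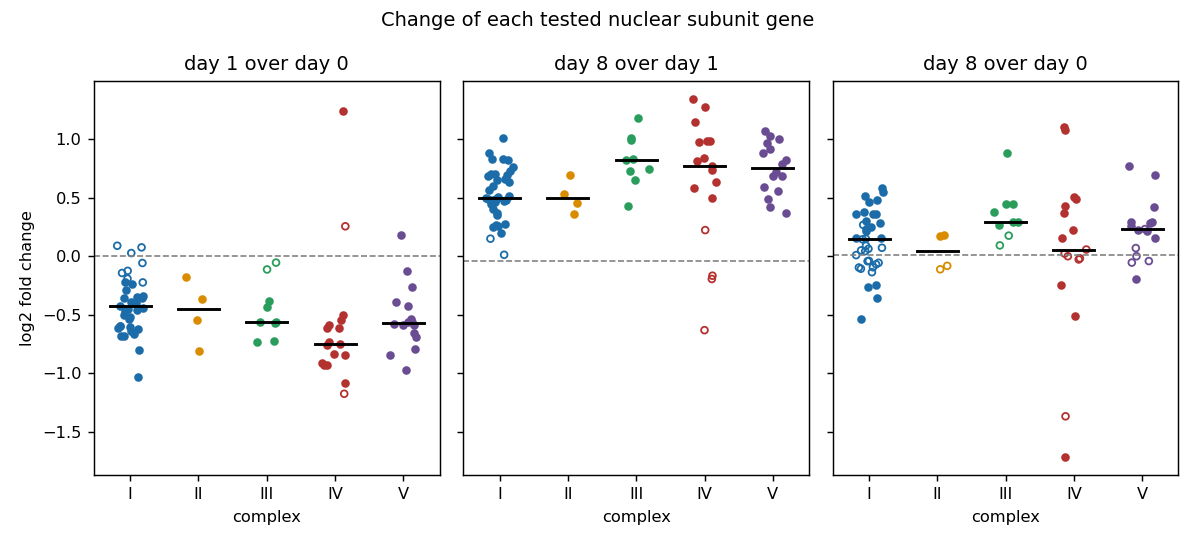
Log2 fold change of each tested nuclear subunit gene of complexes I to V, for day 1 over day 0, day 8 over day 1 and day 8 over day 0. Filled points passed the edgeR test at an adjusted p under 0.05, open points did not, bars are medians over the complex and the dashed line is the median of all 15712 genes. Most points lie below the dashed line at day 1 and above it for day 8 over day 1, and complex III has the highest median for day 8 over day 0.

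All 37 nuclear genes of complex I were tested, and 29 were lower at day 1 than at day 0 and 0 higher, where 34.5% of all genes were lower. At day 8, 35 of the 37 were higher than at day 1, where 31.8% of all genes were higher. Against day 0, 16 were higher and 4 lower, where 36.0% of all genes were higher and 35.0% lower. NDUFS8, an iron-sulfur subunit of the core, had 100.1 and 87.9 at day 0, 45.0 and 47.1 at day 1, 54.8 and 56.1 at day 2, 53.8 and 54.0 at day 3, 60.6 and 61.4 at day 4, 43.6 and 52.5 at day 6 and 66.7 and 62.9 CPM at day 8. Both libraries of day 0 were above all later ones. Its log2 fold change was -1.03 ± 0.075 (SE), edgeR adjusted p = 1.79e-11 for day 1 over day 0 and -0.54 ± 0.073 (SE), edgeR adjusted p = 5.81e-07 for day 8 over day 0. NDUFS1, the largest iron-sulfur subunit of the same core, had 96.6 and 100.4 at day 0, 102 and 98.8 at day 1, 111 and 120.0 at day 2, 147 and 148 at day 3, 119 and 135 at day 4, 131 and 136 at day 6 and 141 and 139.9 CPM at day 8. The libraries of days 0 and 1 overlapped and those of day 2 and later were all above them. The log2 fold change of NDUFS1 was 0.029 ± 0.061 (SE), edgeR adjusted p = 0.685 for day 1 over day 0, with a sign that depended on the scaling, and 0.51 ± 0.06 (SE), edgeR adjusted p = 5.47e-08 for day 8 over day 0. NDUFV2, another core subunit, had 141 and 135 CPM at day 8, 140.1 and 133 CPM at day 1 and 127 and 132 CPM at day 0. It was the only subunit of complex I besides NDUFA13 not called between days 8 and 1, at 0.014 ± 0.067 (SE), edgeR adjusted p = 0.864 for NDUFV2 and 0.15 ± 0.075 (SE), edgeR adjusted p = 0.0773 for NDUFA13.

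NDUFV1, the NADH-binding core subunit, was 0.26 ± 0.059 (SE), edgeR adjusted p = 5.16e-04 for day 8 over day 0. Over the 30 accessory subunits, which surround the core, 14 were higher and 2 lower at day 8 than at day 0 (median 0.15). NDUFB6, an accessory subunit of the membrane arm, had 78.5 and 80.6 CPM at day 8, 39.9 and 38.9 CPM at day 1 and 54.3 and 54.1 CPM at day 0, and day 8 did not overlap with the other 2 days. Its log2 fold change of 1.01 ± 0.075 (SE), edgeR adjusted p = 1.78e-11 was the largest of the complex for day 8 over day 1. NDUFB1, another membrane arm subunit, followed at 0.89 ± 0.19 (SE), edgeR adjusted p = 2.72e-04. NDUFA12, an accessory subunit of the peripheral arm, was not called at day 1, at -0.056 ± 0.073 (SE), edgeR adjusted p = 0.506, and was higher at day 8 than at day 0 by 0.58 ± 0.071 (SE), edgeR adjusted p = 9.54e-08. NDUFV3 and NDUFB11 were the lower accessory subunits at day 8, with log2 fold changes of -0.35 and -0.26 over day 0. The 8 subunits not called at day 1 were NDUFA12, NDUFA5, NDUFA7, NDUFB3, NDUFB4, NDUFC1, NDUFS1 and NDUFV2.

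Complex II, the succinate dehydrogenase shared with the citric acid cycle, is encoded by 4 nuclear genes and has no mitochondrially encoded part. All 4 fell at day 1, where 34.5% of all genes were lower, and were higher at day 8 than at day 1, where 31.8% were higher. SDHA, the flavoprotein that oxidises succinate, had 339 and 300.3 at day 0, 180.4 and 184 at day 1, 243 and 236 at day 2, 214 and 219.7 at day 3, 284 and 290.4 at day 4, 234 and 244 at day 6 and 288 and 304 CPM at day 8. The libraries of day 1 were below all others, and those of day 0 and day 8 overlapped. SDHA had a log2 fold change of -0.81 ± 0.055 (SE), edgeR adjusted p = 4.97e-12 for day 1 over day 0 and -0.11 ± 0.054 (SE), edgeR adjusted p = 0.0734 for day 8 over day 0. SDHB, the iron-sulfur subunit, had -0.54 and -0.08 in the same comparisons. The membrane anchors SDHC and SDHD had lower levels at day 1, at -0.18 and -0.36, and were higher at day 8 than at day 0, at 0.18 ± 0.054 (SE), edgeR adjusted p = 0.00443 for SDHC and 0.17 ± 0.066 (SE), edgeR adjusted p = 0.024 for SDHD. SDHD was not called without a filter (0.17), in a fit of the 2 days (0.17), or without the second library of day 0 (0.12) or of day 8 (0.14), with edgeR adjusted p = 0.058 to 0.146.

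Complex III, the cytochrome bc1 complex, had the largest share of nuclear subunits that ended above the start. Of 9 genes tested, 7 were lower at day 1 than at day 0, where 34.5% of all genes were lower. All 9 were higher at day 8 than at day 1, where 31.8% of all genes were higher. Against day 0, 7 were higher and 0 lower at day 8, where 36.0% of all genes were higher and 35.0% lower. UQCRC2, a core protein on the matrix side, had 107 and 107 at day 0, 101 and 96.9 at day 1, 119 and 114 at day 2, 117 and 112 at day 3, 131 and 137 at day 4, 128 and 127 at day 6 and 199 and 196 CPM at day 8. The libraries of day 8 were far above all others, and those of days 0 and 1 were close to each other without overlap. The log2 fold change of UQCRC2 was -0.11 ± 0.053 (SE), edgeR adjusted p = 0.0659 for day 1 over day 0 and 0.88 ± 0.052 (SE), edgeR adjusted p = 1.57e-13 for day 8 over day 0. Its partner UQCRC1 fell at day 1, with 339 and 334 CPM at day 8, 201 and 206 CPM at day 1 and 294 and 255 CPM at day 0, and a log2 fold change of -0.43 ± 0.055 (SE), edgeR adjusted p = 2.04e-07 for day 1 over day 0. UQCRFS1, the Rieske iron-sulfur protein, fell by 0.72 on the log2 scale at day 1 and was 0.29 above day 0 at day 8. UQCRH, the hinge protein that contacts cytochrome c1, had 155 and 167 CPM at day 8 and 71.1 and 71.0 CPM at day 1, a log2 fold change of 1.18 ± 0.07 (SE), edgeR adjusted p = 2.56e-13. CYC1, cytochrome c1 itself, was at 133 and 143 CPM at day 8 and 136 and 122 CPM at day 0, which overlapped (0.094 ± 0.064 (SE), edgeR adjusted p = 0.197). UQCRQ, a small subunit, was -0.57 at day 1 and 0.18 at day 8 over day 0, the second not called.

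Complex IV, cytochrome c oxidase, had the lowest median of the 5 complexes at day 1. Of 17 nuclear genes tested, 14 were lower and 1 higher at day 1 than at day 0, where 34.5% of all genes were lower. At day 8, 13 were higher and 0 lower than at day 1, where 31.8% of all genes were higher. Against day 0, 8 were higher and 3 lower at day 8, where 36.0% of all genes were higher and 35.0% lower. COX7B, a small membrane subunit, had 93.5 and 91.8 at day 0, 48.8 and 49.9 at day 1, 69.3 and 74.3 at day 2, 58.4 and 59.4 at day 3, 89.3 and 84.9 at day 4, 72.2 and 79.5 at day 6 and 117 and 122 CPM at day 8. The libraries of day 1 were the lowest of all, and those of day 8 the highest. Its log2 fold change was -0.91 ± 0.062 (SE), edgeR adjusted p = 5.05e-12 for day 1 over day 0 and 1.28 ± 0.061 (SE), edgeR adjusted p = 3.72e-15 for day 8 over day 1. COX6C had 62.4 and 63.9 CPM at day 8, 24.9 and 24.9 CPM at day 1 and 44.9 and 44.1 CPM at day 0, without overlap between the days, and the largest log2 fold change of the complex for day 8 over day 1, 1.35 ± 0.082 (SE), edgeR adjusted p = 4.00e-13. NDUFA4, first described as a complex I subunit and now placed in complex IV, had 151 and 147 CPM at day 8, 66.8 and 67.9 CPM at day 1 and 134 and 122 CPM at day 0, also without overlap.

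COX4I1, the main form of the subunit that binds ATP and ADP, did not regain its starting level. It had 279 and 249.6 at day 0, 159 and 156 at day 1, 189 and 198 at day 2, 156 and 162 at day 3, 209.8 and 213 at day 4, 161 and 175 at day 6 and 216 and 229 CPM at day 8. All later libraries were below both libraries of day 0. Its log2 fold change was -0.25 ± 0.057 (SE), edgeR adjusted p = 4.78e-04 for day 8 over day 0. COX5A and COX5B, nuclear subunits on the matrix side of the enzyme, were at -0.026 ± 0.065 (SE), edgeR adjusted p = 0.735 for COX5A and 0.49 ± 0.07 (SE), edgeR adjusted p = 1.17e-06 for COX5B over day 0. COX8A was higher at day 8 than at day 0 by 0.43, while COX6A1, COX6B1, COX7A2 and COX7A2L, at 0.024, 0.059, -0.016 and 0.00, were not called.

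Tissue-specific forms of complex IV subunits were present at low levels and followed other courses. COX7A1, the form known from heart and skeletal muscle, had 1.36 and 1.86 at day 0, 2.04 and 1.81 at day 1, 5.52 and 4.79 at day 2, 4.41 and 3.03 at day 3, 6.66 and 6.84 at day 4, 3.71 and 4.33 at day 6 and 3.66 and 3.27 CPM at day 8. The libraries of day 4 were the highest, and days 0 and 1 overlapped. Per transcript length, COX7A1 made up 3.84 ± 1.34%, 7.66 ± 0.571%, 16.0 ± 1.05%, 12.3 ± 2.87%, 16.4 ± 0.687%, 13.96 ± 0.228% and 7.83 ± 0.726% of COX7A1 and COX7A2 together at days 0, 1, 2, 3, 4, 6 and 8 (SD, n = 2). COX4I2, the form known from lung and induced by low oxygen in human and mouse cells, had 0.609 and 0.835 at day 0, 1.99 and 1.46 at day 1, 1.14 and 0.949 at day 2, 1.68 and 2.61 at day 3, 3.55 and 2.59 at day 4, 4.77 and 5.05 at day 6 and 1.52 and 1.55 CPM at day 8. It was highest at day 6, and its change was 1.25 ± 0.35 (SE), edgeR adjusted p = 0.00269 for day 1 over day 0 and -1.67 ± 0.26 (SE), edgeR adjusted p = 1.21e-05 for day 8 over day 6. Its share of COX4I1 and COX4I2 per length was at most 0.614% in any library. COX6B2, known from testis, was at 0.522 and 1.03 CPM at day 8 and 3.00 and 2.18 CPM at day 0, a change of -1.71 ± 0.43 (SE), edgeR adjusted p = 0.00105. COX6A2 and COX7B2 had 0 counts in all 14 libraries, where a count of 3 corresponds to 0.121 to 0.146 CPM. NDUFA4L2, the paralogue of NDUFA4 and a known target of hypoxia-inducible factor in human cells, had 0.89 and 1.07 at day 0, 0.231 and 0.398 at day 1, 0.0951 and 0.15 at day 2, 0.176 and 0.0778 at day 3, 0.24 and 0.37 at day 4, 1.05 and 0.631 at day 6 and 2.37 and 1.55 CPM at day 8. It was lowest at days 2 and 3 and highest at day 8, with 2.61 ± 0.47 (SE), edgeR adjusted p = 3.15e-05 for day 8 over day 1.

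**Figure D3:**
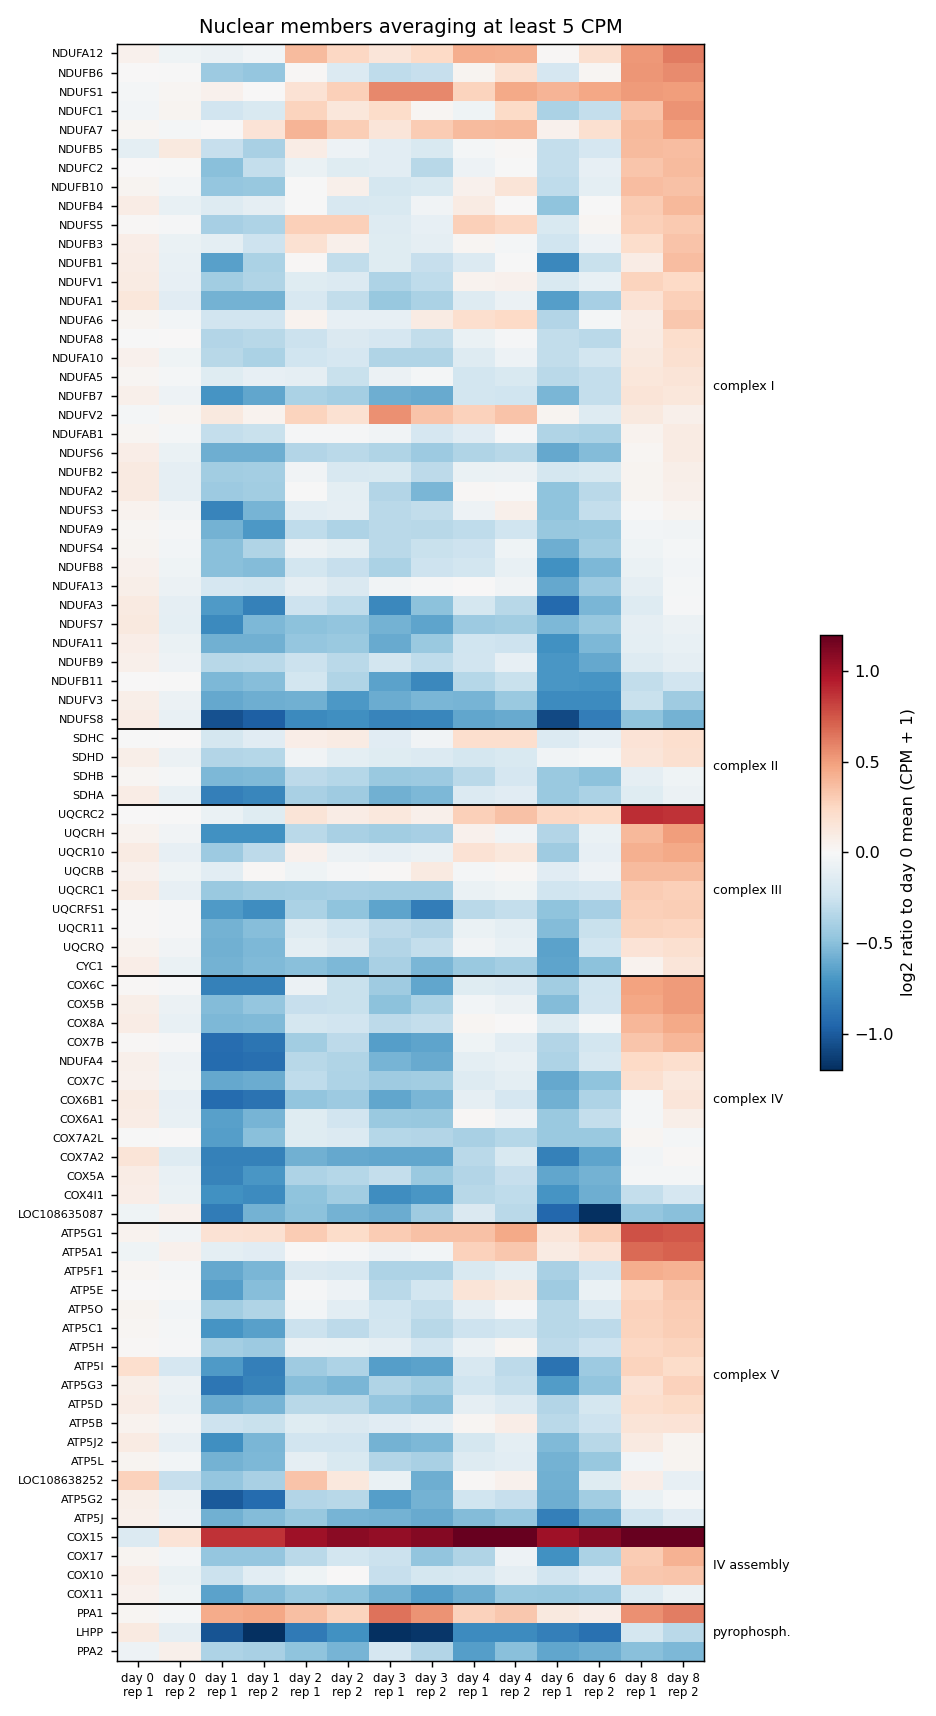
Log2 ratio to the day 0 mean (CPM plus 1) of the nuclear members, except 1 not shown, of complexes I to V, of complex IV assembly and of the pyrophosphatases that averaged at least 5 CPM, in each of the 14 libraries. Rows are ordered within a complex by the fold change of day 8 over day 0, and colours stop at 1.2 on either side. Most rows are blue at days 1, 3 and 6 and lighter or red at day 8, with NDUFS1, COX15, ATP5G1 and PPA1 red at day 3 and NDUFS8 blue throughout the induction.

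Complex V, the ATP synthase, fell and rose almost as a whole. Of 16 nuclear genes tested, 15 were lower and 1 higher at day 1 than at day 0, where 34.5% of all genes were lower. All 16 were higher at day 8 than at day 1, where 31.8% of all genes were higher. Against day 0, 10 were higher and 1 lower at day 8, where 36.0% of all genes were higher and 35.0% lower. ATP5A1, the alpha subunit of the catalytic head, had 609.8 and 652 at day 0, 582 and 573 at day 1, 632 and 625 at day 2, 606 and 615 at day 3, 762 and 789.6 at day 4, 676 and 706 at day 6 and 1011 and 1032 CPM at day 8. The libraries of day 8 were above all others, and those of day 1 were the lowest. Its log2 fold change was -0.13 ± 0.046 (SE), edgeR adjusted p = 0.0188 for day 1 over day 0 and 0.70 ± 0.046 (SE), edgeR adjusted p = 2.03e-12 for day 8 over day 0. The fall at day 1 was not called in a fit of those 2 days alone, nor without the second library of day 0 or without either library of day 1, with values of -0.12, -0.08, -0.14 and -0.12 in that order and edgeR adjusted p = 0.0567 to 0.127. ATP5B, the catalytic beta subunit of the same head, had 766 and 775 CPM at day 8, 579 and 572 CPM at day 1 and 711 and 668 CPM at day 0, and 0.16 ± 0.046 (SE), edgeR adjusted p = 0.00389 for day 8 over day 0. Days 8 and 0 did not overlap for either gene. ATP5J, coupling factor 6 of the stalk, was the subunit called lower at day 8 than at day 0, at -0.19 ± 0.066 (SE), edgeR adjusted p = 0.0134. It was not called without the first library of day 0 (-0.13, edgeR adjusted p = 0.11) or the first library of day 8 (-0.14, edgeR adjusted p = 0.148). ATP5F1, the b subunit of the stalk, had 266 and 262 CPM at day 8, 129 and 134 CPM at day 1 and 199.6 and 194 CPM at day 0, with 1.01 ± 0.055 (SE), edgeR adjusted p = 4.27e-14 for day 8 over day 1. ATP5I, the small membrane subunit e, had 1.02 ± 0.12 (SE), edgeR adjusted p = 3.76e-08 in the same comparison.

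The membrane ring of the ATP synthase is built from subunit c, and 3 genes encode the same mature protein behind different import signals. ATP5G1 had 38.3 and 36.1 at day 0, 42.0 and 42.3 at day 1, 46.1 and 43.6 at day 2, 46.3 and 47.8 at day 3, 47.8 and 51.5 at day 4, 41.3 and 45.6 at day 6 and 64.1 and 63.0 CPM at day 8. It was the only nuclear subunit of complex V called higher at day 1 than at day 0, at 0.18 ± 0.071 (SE), edgeR adjusted p = 0.0265. That call was lost with RLE scaling, with DESeq2, in a fit of the 2 days, and without the second library of day 0 or either library of day 1, at values of 0.14 to 0.19 (edgeR or DESeq2 adjusted p = 0.0579 to 0.137). ATP5G2 had 233 and 243 CPM at day 8, 122 and 129 CPM at day 1 and 259 and 235 CPM at day 0, with the largest fall of the complex at day 1, -0.97 ± 0.061 (SE), edgeR adjusted p = 1.06e-12. ATP5G3 fell by 0.84 at day 1 on the log2 scale and was 0.23 above day 0 at day 8, which was not called without the second library of day 8 (0.18, edgeR adjusted p = 0.0541). Per length, ATP5G1 was 15.4 ± 0.424% of the 3 genes together at day 1 and 12.2 ± 0.552% at day 8, against 7.86 ± 0.193% at day 0 (SD, n = 2 each), and ATP5G2 was 48.6 ± 0.285% at day 1 and 48.2 ± 0.102% at day 8, against 55.0 ± 0.0653% at day 0.

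Members outside the complexes included genes that rose at day 1. COX15, which makes the heme A of complex IV, had 10.7 and 13.6 at day 0, 22.8 and 22.8 at day 1, 25.4 and 26.7 at day 2, 26.1 and 27.1 at day 3, 30.2 and 29.4 at day 4, 25.4 and 27.1 at day 6 and 30.1 and 32.1 CPM at day 8. Both libraries of day 0 were below all later ones. COX15 had a log2 fold change of 0.91 ± 0.099 (SE), edgeR adjusted p = 1.78e-08 for day 1 over day 0 and 1.36 ± 0.096 (SE), edgeR adjusted p = 5.83e-12 for day 8 over day 0. COX10, which makes the heme O that COX15 uses, was -0.20 ± 0.08 (SE), edgeR adjusted p = 0.0326 at day 1 and 0.34 ± 0.077 (SE), edgeR adjusted p = 4.83e-04 at day 8 over day 0. COX17, a copper chaperone of complex IV, was lower at day 1 and higher at day 8 than at day 0, at -0.50 and 0.38, the second not called without the second library of day 8 (0.31, edgeR adjusted p = 0.0629). COX11, which passes copper on to COX1, was lower at day 1 at -0.60. The cytosolic and the mitochondrial inorganic pyrophosphatase, PPA1 and PPA2, moved apart. PPA1 had 123 and 129.7 CPM at day 8, 115 and 116 CPM at day 1 and 85.6 and 82.7 CPM at day 0, with 0.59 ± 0.057 (SE), edgeR adjusted p = 1.81e-09 for day 8 over day 0. PPA2 had 33.1 and 32.2 CPM at day 8, 36.4 and 36.1 CPM at day 1 and 45.5 and 49.5 CPM at day 0, with -0.54 ± 0.076 (SE), edgeR adjusted p = 1.04e-06. LHPP, a phosphatase grouped with them, had the deepest fall at day 1 among nuclear members of at least 5 CPM, -1.21 ± 0.11 (SE), edgeR adjusted p = 6.28e-10, and was -0.28 at day 8 over day 0. The day 8 value was not called with DESeq2 (DESeq2 adjusted p = 0.0643), without the first library of day 0 (-0.17, edgeR adjusted p = 0.2) or without the second of day 8 (-0.22, edgeR adjusted p = 0.124).

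The rule also kept ion pumps that do not take part in respiration. ATP12A, the non-gastric proton-potassium pump, had 0.234 and 0.186 at day 0, 3.52 and 4.96 at day 1, 1.52 and 1.15 at day 2, 0.22 and 0.583 at day 3, 0.383 and 0.37 at day 4, 0.596 and 0.315 at day 6 and 3.51 and 3.31 CPM at day 8. It was high at days 1 and 8 and low at days 0, 3, 4 and 6, with 4.30 ± 0.43 (SE), edgeR adjusted p = 3.75e-09 for day 1 over day 0 and 2.89 ± 0.38 (SE), edgeR adjusted p = 9.02e-07 for day 8 over day 6. ATP4A and ATP4B, the gastric pump, reached no more than 15 and 6 counts per library and were not tested. TCIRG1, a membrane subunit of the lysosomal pump, had 23.6 and 27.5 CPM at day 8, 32.7 and 36.5 CPM at day 1 and 50.1 and 48.0 CPM at day 0, and fell by 0.94 on the log2 scale between days 8 and 0.

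**Figure D4:**
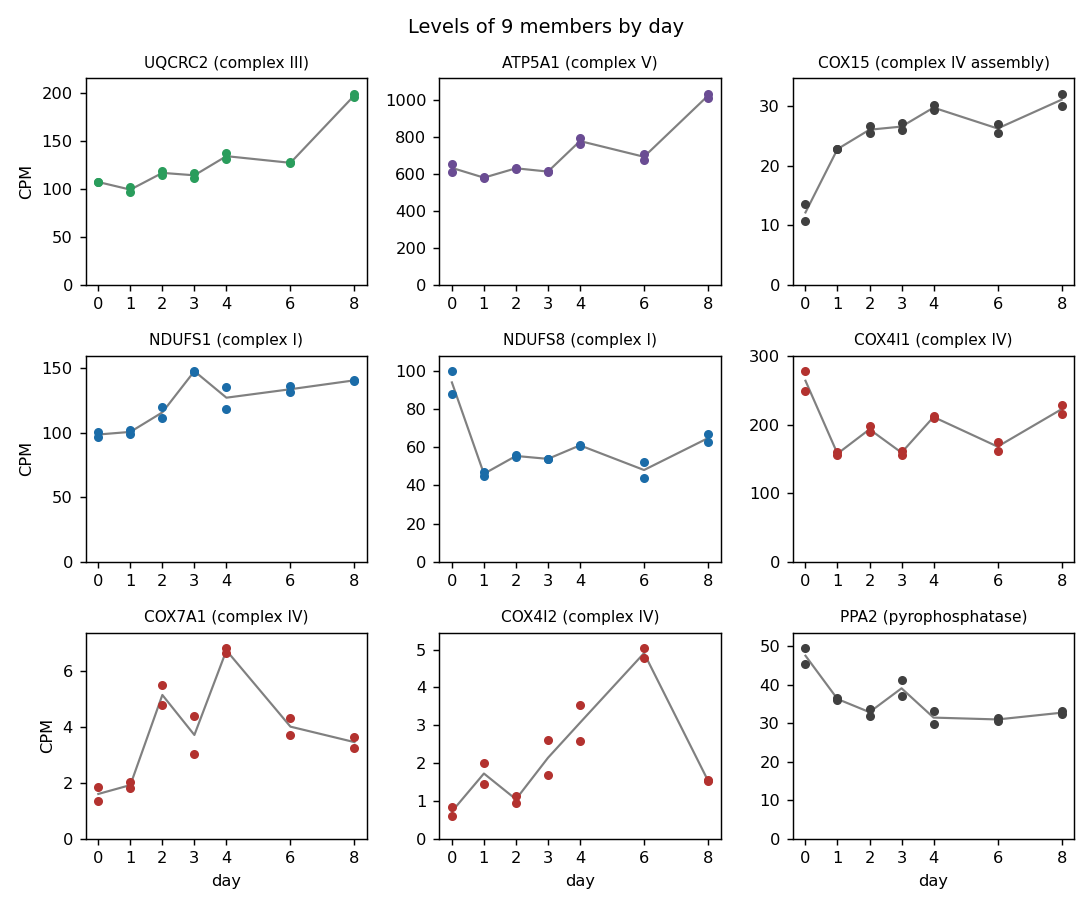
CPM of 9 members of different courses, by day, with a point for each library and a line through the day means. UQCRC2, ATP5A1, NDUFS8 and COX4I1 follow the alternating order of most members and the others do not. UQCRC2 and ATP5A1 are highest at day 8, COX15 is lowest at day 0, NDUFS8, COX4I1 and PPA2 are highest at day 0, COX7A1 is highest at day 4 and COX4I2 at day 6.

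The mitochondrially encoded members made up 2.90% to 4.16% of all counts of a library. Summed over the 32 rows of annotated genes and assembled transcripts, the level was 42079 ± 2245, 29513 ± 60.4, 30099 ± 603, 31420 ± 206, 35179 ± 1431, 36128 ± 345 and 41432 ± 442 CPM at days 0, 1, 2, 3, 4, 6 and 8 (SD, n = 2). Day 1 was at 0.701 times the level of day 0, and day 8 at 0.985 times. The mean of the sum was higher at each sampled day after day 1 than at the day before it, with overlapping libraries between days 6 and 4. The ratio of mitochondrially encoded to nuclear subunit levels was 4.99 and 4.91 at day 1, against 5.10 and 5.04 at day 0, and the other libraries lay between 4.19 at day 2 and 5.64 at day 6.

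Of the 13 annotated mitochondrial genes, 10 were tested. At day 1, 8 were lower and 1 higher than at day 0, against 34.5% of all genes lower and 34.8% higher. At day 8 all 10 were higher than at day 1, against 31.8% of all genes. At day 8, 3 were higher and 4 lower than at day 0, against 36.0% of all genes higher and 35.0% lower. MT-COX3, at 0.15 ± 0.066 (SE), edgeR adjusted p = 0.0473 for day 8 over day 1, was not called with a replicate block (edgeR adjusted p = 0.063), nor without either library of day 1 (0.13 and 0.17), either of day 2 (0.15 each) or the second of day 8 (0.10). MT-COX1, the catalytic subunit of complex IV, had 4658 and 4343 at day 0, 2849 and 2891 at day 1, 3435 and 3323 at day 2, 3323 and 3549 at day 3, 3627 and 3800 at day 4, 3681 and 3611 at day 6 and 4400 and 4239 CPM at day 8, and days 8 and 0 overlapped (-0.059 ± 0.046 (SE), edgeR adjusted p = 0.254). MT-ND1, a membrane core subunit of complex I near the ubiquinone site, had 165 and 143 CPM at day 8, 94.7 and 96.8 CPM at day 1 and 314 and 226 CPM at day 0, with the deepest fall of the 10 at day 1, -1.49 ± 0.11 (SE), edgeR adjusted p = 1.51e-11. MT-CYTB, the catalytic subunit of complex III, was the exception, with 1945 and 1949 CPM at day 8, 1343 and 1376 CPM at day 1 and 992 and 922 CPM at day 0. It rose by 0.51 ± 0.048 (SE), edgeR adjusted p = 1.67e-09 at day 1 and by 1.02 ± 0.048 (SE), edgeR adjusted p = 2.14e-15 at day 8. For day 8 over day 0 the others were 0.33 for MT-ND5, 0.29 for MT-ND4L, 0.05 for MT-ND3, -0.06 for MT-ND6, -0.30 for MT-ND4, -0.42 for MT-ND2 and -0.48 for MT-COX3. MT-ND3, MT-ND6 and MT-COX1 were not called, and MT-ND4L was not called without the first library of day 0 (0.12) or the second of day 8 (0.25). The annotated rows of COX2 and ATP6 reached no more than 8 and 5 counts per library, and that of ATP8 had 0. Low counts in an annotated row do not show that the transcript was absent, as a COX2 domain is also annotated in assembled rows labelled COX1.

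The annotated rows cannot be read as full gene levels. Of the mitochondrially encoded counts, 74.0% stood in the 19 assembled rows, and how reads were divided between overlapping rows is not stated. Several assembled rows also hold protein domains of products other than their own label. A COX2 domain is in the COX1 rows MSTRG.2000, MSTRG.5781 and MSTRG.5782, and a COX3 domain in the ND4 rows MSTRG.5779 and MSTRG.5780. MSTRG.2000 also holds a domain annotated in MT-ND1. The CYTB row MSTRG.4663 holds a domain that is also annotated in MT-ND6, and another that is also annotated in MT-ND2, MT-ND4 and MT-ND5. MT-CYTB is a case of an annotated row that does not show a full gene level. The assembled CYTB row MSTRG.4663 had 8087 and 8379 CPM at day 8, 5847 and 5781 CPM at day 1 and 8066 and 7311 CPM at day 0, and fell by 0.40 on the log2 scale at day 1 while MT-CYTB rose. The 3 rows annotated as CYTB together were at 10541 ± 244 CPM at day 8 and 7388 ± 24.1 CPM at day 1, against 8921 ± 614 CPM at day 0. A pair of assembled ND4 rows moved in opposite directions at day 1, MSTRG.5779 by 1.48 ± 0.06 (SE), edgeR adjusted p = 3.08e-16 and MSTRG.5780 by -1.35 ± 0.068 (SE), edgeR adjusted p = 1.77e-14. Together they were at 4201 ± 65.1 CPM at day 8 and 3398 ± 14.7 CPM at day 1, against 5257 ± 447 CPM at day 0. The assembled COX1 rows MSTRG.5781 and MSTRG.5782 behaved likewise, at -1.84 and 0.46 at day 1, and together were at 3067 ± 6.77 CPM at day 8 and 1946 ± 16.5 CPM at day 1, against 2801 ± 24.7 CPM at day 0. At day 0 the first of them was higher and the second lower in library 1 than in library 2, with 1941 and 1544 CPM and 843 and 1275 CPM.

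Rows were summed by the product they are annotated with. A sum can therefore hold counts of other products, and can miss counts that stand in rows labelled with another product. By these sums, the 10 measured mitochondrially encoded products were at 0.453 times (ND1) to 0.966 times (ND5) the day 0 mean at day 1. For ND4L the libraries of these 2 days overlapped. ND1 was at 290 ± 18.8 CPM at day 8 and 177 ± 11.5 CPM at day 1, against 390 ± 68.4 CPM at day 0. ND5 had the highest ratio of day 8 to day 0 among the products at 1 CPM or more, at 4665 ± 150 CPM at day 8 and 3259 ± 7.48 CPM at day 1, against 3375 ± 12.2 CPM at day 0. The rows annotated as COX1, which had the highest sum, were at 15728 ± 31.8 CPM at day 8 and 10474 ± 43.3 CPM at day 1, against 16735 ± 570 CPM at day 0. These sums carry no test.

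**Figure D5:**
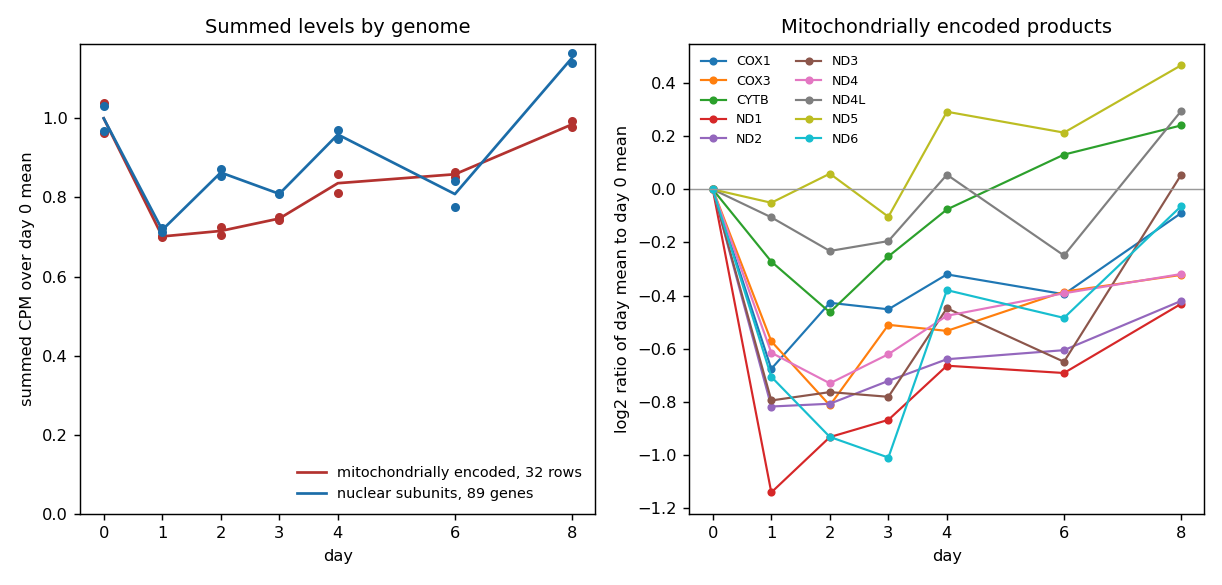
Left, summed CPM of the mitochondrially encoded rows and of the nuclear subunit genes relative to the day 0 mean, with a point for each library. Right, log2 ratio of the day mean of each mitochondrially encoded product to day 0, summed over the rows annotated with it. Some of these rows also hold domains of other products. The mitochondrial sum climbs from day 1 to day 8 while the nuclear sum goes up and down, and ND5, ND4L and CYTB end highest and ND1 and ND2 lowest.

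Pseudogene rows held few counts, with 60 of 98 at 0 in all libraries and 6 tested. The row LOC102173195, a transcribed pseudogene annotated as UQCRB, had 0.843 and 0.742 at day 0, 32.9 and 31.1 at day 1, 30.4 and 32.2 at day 2, 48.7 and 56.2 at day 3, 52.2 and 37.2 at day 4, 113 and 102 at day 6 and 38.7 and 37.0 CPM at day 8. It was lowest at day 0 and highest at day 6, with 5.57 ± 0.21 (SE), edgeR adjusted p = 2.18e-17 for day 8 over day 0. In RefSeq's gene table (assembly ARS1.2) it lies inside the span of TPM1, a tropomyosin gene, and TPM1 was at 4203 and 4353 CPM at day 8 and 5119 and 5147 CPM at day 6, against 852 and 886 CPM at day 0. Whether its counts come from TPM1 transcripts was not tested. The NDUFV2 pseudogene LOC108636347 had 35.2 and 34.5 CPM at day 8, 35.3 and 35.5 CPM at day 1 and 62.0 and 55.3 CPM at day 0, and fell by 0.75 on the log2 scale at day 8. The coding gene NDUFV2 showed no such fall, and because near-identical copies can share reads the levels of both are uncertain. The same holds for LOC108635087, a second row for COX7A2, which was -0.51 ± 0.11 (SE), edgeR adjusted p = 1.57e-04, for day 8 over day 0. The zinc finger rows stayed under 1.5 CPM. Of the tested members, 4 were called in none of the 8 comparisons, MSTRG.4660, LOC102184502, LOC108633170 and LOC102177253, all averaging under 0.6 CPM. The 122 members not tested had at most 15 counts in a library.

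The 83 tested nuclear genes of complexes I to V shared a profile. Across the 14 libraries, the median Pearson correlation of a gene with their mean standardised profile was 0.897, 57 were above 0.8, and 6 were below 0.5, as a description in which the libraries share days and scaling and each gene is part of the mean. Of all genes tested, 2.95% were above 0.8. UQCR11 and NDUFA1, small subunits of complexes III and I, were closest to the mean, at 0.988 and 0.984. COX4I2, NDUFV2, LOC108633170, COX7A1, NDUFS1 and COX6B2 were the 6 below 0.5. Over the mean of all 129 tested members, the most alike genes outside the set were SUCLG1 of the citric acid cycle (r = 0.980), the prohibitin PHB2 (0.964), the translation initiation factor subunit EIF3L (0.961), the ribosomal protein RPL39 (0.960) and CHCHD2, a mitochondrial intermembrane protein (0.959), over 14 libraries.

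Related gene lists outside the set shared the course in part. Among all genes, 34.8% were higher and 34.5% lower at day 1 than at day 0. For day 8 over day 1 the shares were 31.8% and 35.0%, and for day 8 over day 0 they were 36.0% and 35.0%. Of 77 mitochondrial ribosomal proteins, 50 were lower and 5 higher at day 1 than at day 0 (median -0.32). At day 8, 49 were higher and 6 lower than at day 1 (0.29), and 19 higher and 24 lower than at day 0 (-0.06). Their medians in the steps from day 0 to day 8 were -0.32, 0.22, -0.11, 0.10, -0.21 and 0.39, the alternating order of the members. Of 16 citric acid cycle and pyruvate dehydrogenase genes, 4 were higher and 9 lower at day 1 than at day 0 (-0.18). At day 8, 14 were higher and 1 lower than at day 1 (0.38), and 11 higher and 0 lower than at day 0 (0.23). The step medians of these 16 genes were -0.18, 0.11, 0.008, 0.12, -0.17 and 0.32, without a fall at day 3. Of these, PDHA1, the alpha subunit of pyruvate dehydrogenase, was at 76.6 ± 4.32 CPM at day 8 and 31.6 ± 3.3 CPM at day 0, a log2 fold change of 1.28 ± 0.077 (SE), edgeR adjusted p = 3.19e-13. A list of 23 tested genes covered glycolysis together with pyruvate dehydrogenase kinases and lactate and glucose transporters. Of these, 18 were lower and 3 higher at day 1 than at day 0 (-0.72). At day 8, 15 were lower and 6 higher than at day 0 (-0.64), and 10 higher and 6 lower than at day 1 (0.0077). The step medians of this list were -0.72, 0.14, -0.09, 0.16, -0.39 and 0.26, also in the alternating order. PKM, the last enzyme of glycolysis, was at 1284 ± 21.9 CPM at day 8 and 5216 ± 470.4 CPM at day 0 (-2.02 ± 0.055 (SE), edgeR adjusted p = 3.63e-20). PDK4, which switches pyruvate dehydrogenase off, was at 166 ± 9.64 CPM at day 8 and 0.303 ± 0.0351 CPM at day 0 (9.07 ± 0.15 (SE), edgeR adjusted p = 4.17e-24).

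Assembly factors and regulators were the last lists compared. Of 27 found and tested, 6 were higher and 7 lower at day 1 than at day 0 (median -0.08), and 13 were higher and 2 lower at day 8 than at day 0 (0.23). SDHAF1, which inserts the iron-sulfur clusters of SDHB, was at 15.0 ± 0.909 CPM at day 8 and 5.8 ± 0.717 CPM at day 0 (1.37 ± 0.12 (SE), edgeR adjusted p = 5.30e-10). Of 18 tested regulators of mitochondrial transcription and biogenesis, 5 were higher and 5 lower at day 1 than at day 0, and 7 were higher and 4 lower at day 8 than at day 0 (0.09). Of all genes 34.8% were higher and 34.5% lower in the first of these comparisons, and 36.0% higher and 35.0% lower in the second. PPARGC1B, a coactivator of respiratory gene transcription, was at 64.0 ± 3.45 CPM at day 8 and 6.45 ± 0.0176 CPM at day 1, against 5.31 ± 1.22 CPM at day 0, a log2 fold change of 3.59 ± 0.11 (SE), edgeR adjusted p = 3.41e-19 for day 8 over day 0. MTERF2, a factor that binds mitochondrial DNA, was at 15.7 ± 0.477 CPM at day 8 and 4.1 ± 0.235 CPM at day 0 (1.93 ± 0.13 (SE), edgeR adjusted p = 2.48e-12).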

How the data were processed

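Expression was measured by RNA-seq of ribosomal RNA-depleted total RNA in 14 libraries. The values are estimated counts per gene deposited by the authors. Of all values, zeros included, 90.0% are exactly whole numbers, and of those above 0, 83.1%. They were rounded before testing. Per the submitters' processing notes, DESeq2 1.16.1, HTSeq and FastQC 0.10.1 were among the tools. Aligner, genome build and strand setting: not given in the sources used here. Another 7 columns of the table, which hold day means, were not used.

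Genes were tested with edgeR 4.0.16 in R 4.3.3 with TMM scaling, the tool's filter on low counts (15712 genes kept) and quasi-likelihood tests in a fit over all 7 days with 7 residual degrees of freedom. Benjamini-Hochberg adjustment ran over all genes tested in each of 8 comparisons, with a threshold of 0.05. The standard error is the fold change over the root of the test's F. CPM uses TMM-scaled library sizes, and levels between genes were divided by the length in the authors' table. The script was tested on simulated data. Python 3.11.15, pandas 2.3.3, numpy 2.4.6 and matplotlib 3.10.9 made summaries and figures. Alternatives were RLE scaling, DESeq2 1.42.0, no or a stricter filter, scaling without mitochondrially encoded rows, a fit of only the days compared, a replicate block and leaving out each library.

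Any member could be named. Members with full statistics included the mitochondrially encoded ones, core subunits, isoform groups and up to 3 called members of at least 5 CPM with the largest change in each direction per complex. In each step the 2 largest in each direction were named. From other lists, genes were taken from the 3 largest in each direction. The values of 1 member are not reported here. The members and lists were chosen with earlier results of these data known. A search for promoter motifs was not run, because no promoter sequences were used here. The same replicate numbers did not pair libraries: for 0 of 21 pairs of days was the correlation of same-numbered deviations over 0.1.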

Additional observations from a re-analysis of the deposited data

How the results depend on the processing

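With 2 libraries a day, some calls were lost when 1 library was left out. The 2 libraries of day 0 differed most, at a chi-square of 8.12 for each degree of freedom, against 1.80 to 4.58 on the other days. Rows for near-identical or overlapping transcripts, the mitochondrially encoded ones above all, limit what a single row shows. Of 3674 alternatives over 175 named values, 3576 kept direction and call, 74 lost the call, 3 gained it and 21 turned the sign. No scaling moved the median of all genes by more than 0.06 on the log2 scale.

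Counts of called members moved by more than 1.5 times in these cases, and the cause was not tested. Scaling by RLE gave 8 lower at day 4 against day 3, where the main count was 5. DESeq2 gave 47 lower at day 6 against day 4, and a fit of only these days 45, where the main count was 71. With only the nuclear genes of complexes I to V, which are fewer, an alternative chosen after seeing the data, 2 were higher at day 1 against day 0, 0 lower at day 2 against day 1, 33 called and 3 higher at day 3 against day 2, 1 lower at day 4 against day 3, 2 higher at day 6 against day 4, 1 lower at day 8 against day 6, 0 lower at day 8 against day 1, and 51 called and 8 lower at day 8 against day 0.

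Leaving out each library gave 97 to 107 called at day 1 against day 0 (9 to 11 higher, 88 to 96 lower), 67 to 87 at day 2 against day 1 (58 to 75 higher, 6 to 12 lower), 33 to 59 at day 3 against day 2 (9 to 18 higher, 21 to 41 lower) and 54 to 75 at day 4 against day 3 (49 to 70 higher, 3 to 7 lower). It gave 47 to 83 at day 6 against day 4 (4 to 9 higher, 42 to 75 lower), 98 to 107 at day 8 against day 6 (96 to 105 higher, 2 to 3 lower), 107 to 116 at day 8 against day 1 (104 to 113 higher, 2 to 3 lower), 71 to 87 at day 8 against day 0 (49 to 65 higher, 19 to 26 lower) and 122 to 125 in any day. The lowest total at day 6 against day 4 was without the first library of day 6. The 33, 35 and 34 at day 3 against day 2 were without the first or second library of day 2 and the first of day 3.

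A fit with the replicate number as a block called 104 members at day 1 against day 0 and 81 at day 8 against day 0, and changed no count of members called by over 1.5 times.

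Signs turned for values near 0 that were not called. NDUFS1 at day 1 over day 0 was -0.0060 with RLE scaling and with DESeq2, and -0.00081 to 0.056 when single libraries were left out. With single libraries left out, MT-ND4L ranged from -0.28 to 0.087 at day 1 over day 0, and COX4I2 from -0.38 to 0.071 at day 8 over day 1. At day 8 over day 0 the ranges were -0.099 to 0.016 for ATP5G2, -0.094 to 0.068 for COX5A, -0.042 to 0.12 for COX6A1, -0.029 to 0.16 for COX6B1, -0.14 to 0.14 for COX7A2 and -0.020 to 0.030 for COX7A2L. COX7A2L was also -0.0043 with no filter and -0.0068 with scaling without mitochondrially encoded rows.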
